A study of Caenorhabditis elegans with 2 samples.

Results

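The 6 C. elegans genes dys-1, dyb-1, stn-1, sgn-1, sgca-1 and sgcb-1, out of 19973 nuclear protein-coding genes, encode proteins of the dystrophin complex. They were taken from a fixed list of names that was chosen from these same data, after the peaks at dys-1 and dyb-1 were known, so their peaks are described here and not tested. A peak was assigned to a gene when its summit lay in the gene body or up to 1000 bp upstream of the 5′ end of any of its transcripts. By this rule 10 of the 2415 peaks in the main list belonged to the 6 genes, 5 of them at dys-1 and 5 at dyb-1.

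The data are chromatin immunoprecipitation and sequencing (ChIP-seq) peak lists for T22C8.4, a protein that the RefSeq annotation describes only by a zinc finger domain of the C2H2 type. There were 2 biological replicates of 1 group and no other condition: midembryonic animals aged 2 hours, obtained by egg bleaching, of strain OP785. The strain carries the transgene wgIs785, which holds T22C8.4 with a TY1 EGFP 3xFLAG tag and an unc-119(+) rescue copy in an unc-119(tm4063) background, and the antibody was against GFP. Chromatin came from whole animals, sonicated to 200 to 800 bp, so a peak does not tell in which cells the tagged protein bound. The tagged protein came from a transgene, both replicates were of the same line, and no embryos without the tag were analysed here, so a peak also does not tell apart binding of the tagged protein from recovery of the same DNA without it.

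Dystrophin is a long rod-shaped protein under the muscle cell membrane that links the actin cytoskeleton to a complex of membrane proteins, and its loss in humans causes Duchenne muscular dystrophy. Dystrobrevin is a dystrophin relative that binds dystrophin directly, syntrophins are adaptors that bind both, and sarcoglycans span the membrane beside dystroglycan. In C. elegans, loss of dys-1, dyb-1 or stn-1 gives overactive, head-bending movement, and dys-1 mutants lose muscle in sensitised strains.

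Of the 6 genes, dys-1 (dystrophin) and dyb-1 (dystrobrevin) held kept peaks, and stn-1 (syntrophin), sgn-1, sgca-1 and sgcb-1 (sarcoglycans) held none. The same 2 of 6 genes held peaks in each of 4 lists: the main list from both replicates together, the conservative list and each replicate's own list. For background, 9.1% of all protein-coding genes held a kept summit in the main list, 8.79% in the conservative list, 6.43% in the replicate 1 list and 5.13% in the replicate 2 list. The peaks at dys-1 and dyb-1 are what chose the genes, so nothing is read from the contrast with these shares. A share of 0.12% of protein-coding genes, 24 in all, held 5 or more main-list summits as dys-1 and dyb-1 did.

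The strongest peak of the complex lay in dys-1, which runs over 30934 bp of the minus strand of chromosome I (chrI:11526918-11557851, WBcel235/ce11) and has 46 introns in its longest transcript, F15D3.1a.1. This peak, chrI:11533631-11534106 with its summit at 11533843, lay in intron 36, a 523-bp intron 24008 bp from the 5′ end of the gene. Its signal value was 1113 in the main list, 579 in replicate 1 and 494 in replicate 2. Signal values throughout are the authors' own, without a unit and not on one scale between lists, and here they only rank peaks within a list. The peak ranked 3 in the main list and 3 among the kept peaks of each replicate, which numbered 1629 and 1319. In the ranked lists it came at place 8 in the pooled list, 9 in replicate 1 and 11 in replicate 2. Some stronger entries were thus not kept: the pooled ranked list reached a signal of 4148, the main list 1295. Why they were left out was not tested. The median signal of all kept peaks was 105 in the main list, 70.7 in replicate 1 and 70.4 in replicate 2, so the dystrophin peak stood far above the typical peak of each list.

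The next intron of dys-1 held a double peak. Intron 37, of 760 bp, carried 2 summits within the interval chrI:11532519-11533171. The summit at 11532775 had a signal of 288 in the main list, 147 in replicate 1 and 130.5 in replicate 2. The neighbouring summit at 11533002, 24849 bp from the 5′ end, had 147, 77.0 and 67.8 in the same order. Both summits were kept in both replicates. These 3 summits in introns 36 and 37 lay within the rear part of the gene, between 2951 and 4019 bp upstream of the 5′ end of F15D3.1b.1, a short transcript of 2907 bp that holds only the last exons.

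The other 2 dys-1 peaks were weaker and lay at the 3′ end of the gene. One, chrI:11527632-11527921 with its summit at 11527777, was in the last intron, number 46 and 753 bp long, 502 bp downstream of the 5′ end of the short transcript F15D3.1g.1. Its signal was 95.05 in the main list, 61.9 in replicate 1 and 38.3 in replicate 2. The other, chrI:11526928-11527217 with its summit at 11527073, was in the 3′ UTR, 30778 bp from the 5′ end, with 87.6, 60.6 and 35.5. Both were kept in replicate 1. In replicate 2 both were in the ranked list but below the cut, with scores of 133 and 656 against a lowest kept score of 830. The deposited score measures how well a peak repeats between 2 rankings (the irreproducible discovery rate, IDR) and is capped at 1000, the value of all 10 main-list peaks at dys-1 and dyb-1.

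Replicate 1 kept 1 further dys-1 summit, at 11533150 in intron 37, which was 148 bp from the nearest main-list summit. Its signal was 10.8 and its −log10 q-value 0.0047, so by the peak caller's own q-value it was close to no enrichment. No annotated noncoding gene lay within 1000 bp of a dys-1 main-list summit. Among the noncoding genes in the dys-1 window, the nearest was the noncoding RNA gene F32B4.11, 3374 bp away.

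The remaining length of dys-1 was not empty in the ranked list. The pooled ranked list, which holds 55975 entries before the cut, had 36 entries in the dys-1 window, and the 31 entries that were not kept had scores of 27 to 198. Their signals ran from 3.01 to 59.6, all below the weakest kept dys-1 peak. They were spread along the gene from 816 bp upstream of the 5′ end onward, whereas every kept summit lay 24008 bp or more into the gene. No entry near the 5′ end of the longest transcript was kept. The upstream entry had a signal of 35.3 and a score of 55. Its summit, at 11558667, lay inside another protein-coding gene, F15D3.9 (chrI:11557986-11558683, plus strand).

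**Figure D1:**
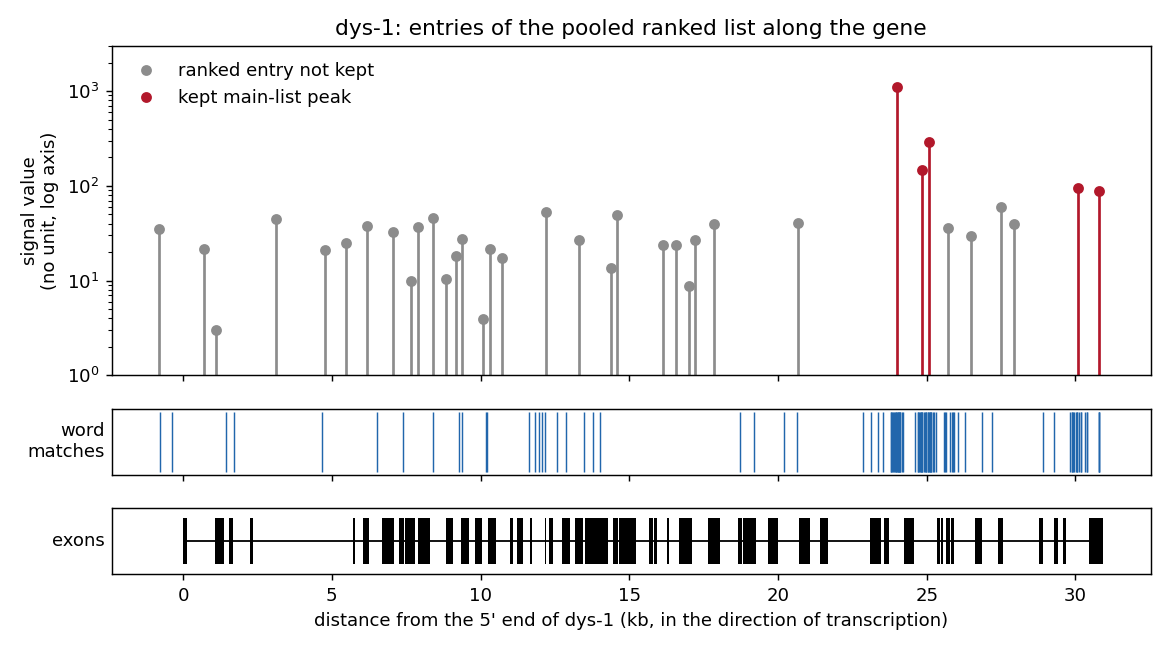
Signal value (log axis, no unit) of each entry of the pooled ranked list along dys-1, by distance of its summit from the gene's 5′ end, with matches to the words ATCGAT and ATTGAT and the exons of the longest transcript beneath. Red points are the 5 kept peaks, all at 24008 bp or more, and grey points the 31 entries not kept, all at signals of 59.6 or less.

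In dyb-1 all 5 peaks lay in the introns of the second part of the gene. It spans 7416 bp of the plus strand (chrI:1483083-1490498) and has 9 introns in its longest transcript, F47G6.1a.1. The strongest peak, chrI:1488116-1488410 with its summit at 1488300, was in intron 7, of 328 bp. Its signal was 381 in the main list (rank 72), 203 in replicate 1 and 188 in replicate 2. The second, chrI:1489392-1489603 with its summit at 1489519, was in the last intron, number 9 and 999 bp long, with 263, 138 and 114. These peaks were kept in both replicates and exceeded the median kept signal of every list.

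The third peak, chrI:1487444-1487573 with its summit at 1487541, was in intron 6, of 358 bp, and had signals of 212 in the main list, 127 in replicate 1 and 96.2 in replicate 2. The fourth, chrI:1488749-1489038 with its summit at 1488894, was in intron 8, of 392 bp, with 146, 71.7 and 64.8. It lay 172 bp upstream of the 5′ end of F47G6.1c.2, a short transcript of 1433 bp with 1 intron. Introns 6, 7, 8 and 9 each held a main-list peak, and introns 1 to 5 held none.

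The fifth dyb-1 peak, chrI:1487598-1487887 with its summit at 1487743, shared intron 6 with the third and was of a different order. Its signal was 27.8 in the main list (rank 2329 of 2415) and 14.0 in replicate 1, and its −log10 q-value in the main list was 0.037. In replicate 2 it had no summit within 100 bp; the replicate 2 peak that overlapped it was the counterpart of the third peak, 139 bp away. The conservative list did not keep it, with a score of 54 in the ranked list that compares the replicates. In the pooled ranked list 31195 of the 53397 entries with scores under 830 had a higher signal than this kept peak. It therefore counts as 1 of the 5 by the deposited score, but its signal was that of a low entry.

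Replicate 2 kept its own further dyb-1 summit, at 1489722 in intron 9 and 203 bp from the nearest main-list summit, with a signal of 15.8 and a −log10 q-value of 0.037. One piRNA gene, 21ur-13232 (chrI:1487607-1487627, minus strand), lies inside dyb-1; piRNAs are small RNAs that guide silencing in the germ line. It was 66 bp from the third summit, 116 bp from the fifth and 673 bp from the strongest. Hence 3 of the 10 summits at the complex had a noncoding gene within 1000 bp, against 27.5% of all main-list summits.

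The 5′ end of dyb-1 held the entry with the highest score among those of dys-1 and dyb-1 that the pooled list did not keep. Its summit lay 19 bp inside the gene, in the 5′ UTR, with a pooled signal of 67.4 and a score of 419. The score was 713 in the ranked list that compares the replicates, still under 830. Replicate 1 had a signal of 31.8 and a score of 319 at a summit 40 bp before the 5′ end, and replicate 2 had one 22 bp inside with 33.7 and 59. With an upstream limit of 2000 bp in place of 1000 bp, dyb-1 gained 1 kept peak of signal 113, whose summit lay 1365 bp before the gene.

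**Figure D2:**
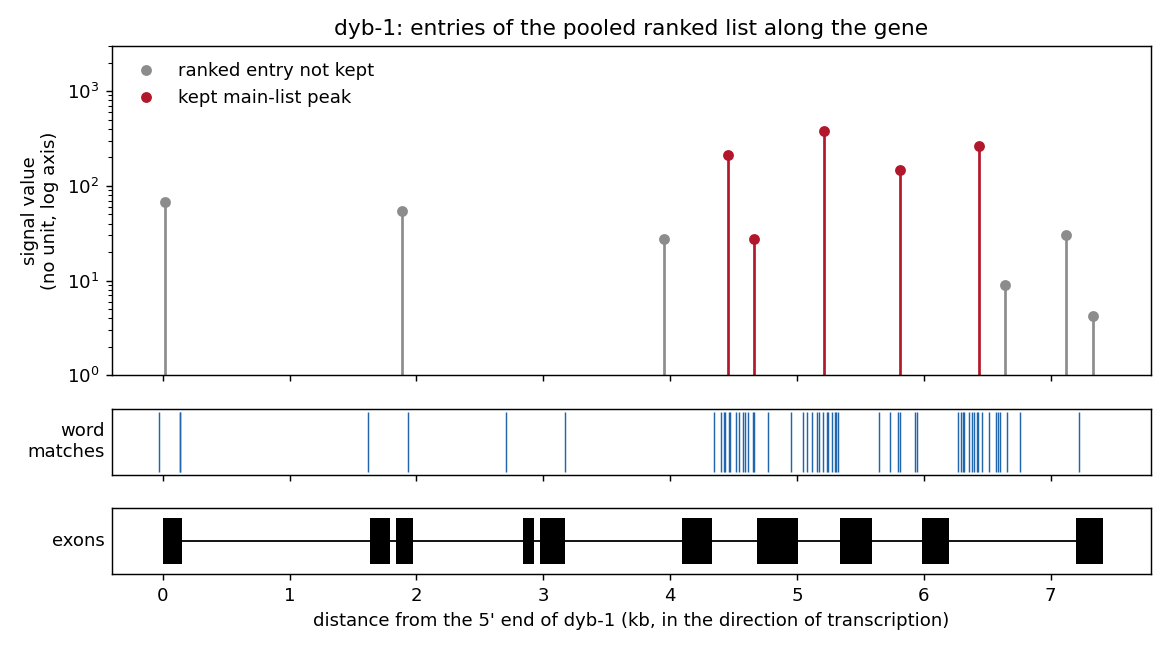
Signal value (log axis, no unit) of each entry of the pooled ranked list along dyb-1, by distance of its summit from the gene's 5′ end, with word matches and exons beneath. The 5 kept peaks (red) lie between 4458 and 6436 bp, where the word matches gather, and the entry at the 5′ end (signal 67.4) was not kept.

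By overlap of at least 1 bp, 8 of the 10 main-list peaks at dys-1 and dyb-1 met a kept peak of each replicate, and the 2 others met one of replicate 1 only. Over all main-list peaks the share was 42.3%, or 1022 of 2415. When summits had to lie within 100 bp, 7 of 10 met that rule, against 40.6% of all. The peak lost was the fifth dyb-1 peak, the weak one. The order of strength was the same in the main list and in each replicate among the 5 dys-1 summits and among the first 4 dyb-1 summits. In replicate 2 the weaker dys-1 summits were those not kept.

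**Figure D3:**
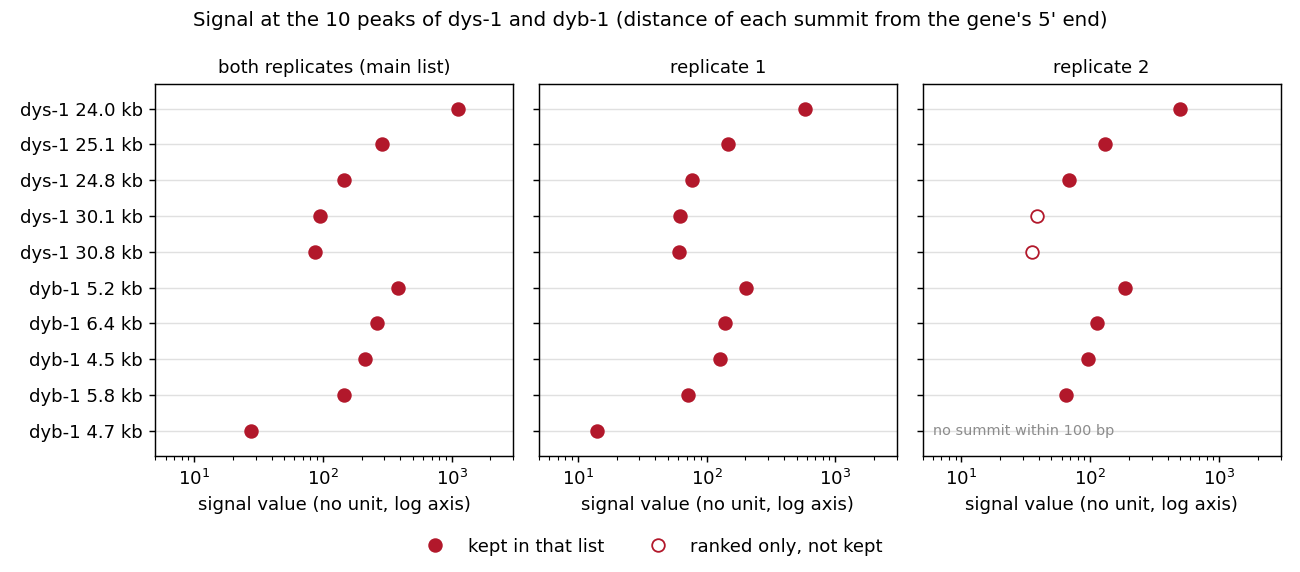
Signal value (log axis, no unit) of the 10 main-list peaks at dys-1 and dyb-1 in the main list and in each replicate's own ranked list, 1 row a peak. Filled points were kept in that list and open points were ranked only; the dys-1 peak at 24.0 kb stands highest in all 3 panels, and the scales of the panels are not comparable.

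Gene length bears on these counts, since a long gene offers more room for summits. The dys-1 window of 31.9 kb held 1.57 summits per 10 kb. Among 404 protein-coding genes of 0.5 to 2 times its length, itself included, 29.7% held any summit, and dys-1 stood at percentile 96.3 by density, with 14 others at least as dense. The dyb-1 window of 8.42 kb held 5.94 summits per 10 kb. Among 5550 genes of like length 16.2% held any summit, and dyb-1 stood at percentile 99.7, with 18 others at least as dense. The summits at dys-1 and dyb-1 are what chose these genes, so nothing is read from either percentile. Without the fifth peak dyb-1 would hold 4 summits, and dys-1 with its overlapping double peak merged would hold 4.

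Neither gene led the genome. Y25C1A.7 held the most main-list summits of any protein-coding gene, 14 in its window. It was followed by png-1, plx-1 and eme-1 with 8 each and pro-3 with 7. By number of summits, with ties ordered by summed signal, dys-1 came at place 15 and dyb-1 at place 18. The png-1 gene, which encodes a deglycosylating enzyme, also held the strongest kept peak of the main list, at a signal of 1295, just above dys-1 in rank order with 1 peak between them.

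The stn-1 gene (WBGene00006062, 3908 bp) encodes the syntrophin adaptor and had no kept peak in any list. Its window held 4 entries in the pooled ranked list. The best by score, 217, had a signal of 47.3 and its summit, at 9501002, 264 bp upstream of the gene. This summit lay between stn-1 and the snoRNA gene F30A10.16 (chrI:9500624-9500823, minus strand). The entry therefore cannot be given to stn-1 alone. Replicate 1 had an entry at nearly the same place, 261 bp upstream, with a signal of 20.6 and a score of 22, and replicate 2 had one 180 bp upstream with 33.5 and 63. The best by signal, 49.3, lay in intron 1 and had a score of 54. All of these scores were far from 830.

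The sarcoglycan genes had no kept peak either. In sgn-1 (chrII:8782008-8783670, minus strand), the best pooled entry lay 119 bp inside the gene in the 5′ UTR, with a signal of 55.2 and a score of 443. It was the highest pooled score among the 4 genes without a peak. In the ranked list that compares the replicates this entry had a score of only 71. The best scores there were 143 in stn-1, 146 in sgca-1 and 93 in sgcb-1. Replicate 1 had this entry with a signal of 35.7 and a score of 204, and replicate 2 had no entry in the sgn-1 window. In sgcb-1 (chrII:326300-328224, plus strand), which encodes beta-sarcoglycan, the pooled list and both replicate lists had no entry, and the ranked list that compares the replicates had 2, with scores of 93 and 28.

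In sgca-1 (chrX:6787256-6789548, minus strand), the best pooled entry had a signal of 50.7 and a score of 336, with its summit in intron 1, of 45 bp, 174 bp from the 5′ end. Both replicates had a summit within 7 bp of it, with a signal of 18.7 and a score of 22 in replicate 1 and a signal of 24.7 and a score of 48 in replicate 2. Its 101 bp around the summit, chrX:6789324-6789424, are shown because they hold ATTGAT, 1 of the 2 words described further on for the peaks of dys-1 and dyb-1, at an entry that was not kept. The sequence is the plus strand of the RefSeq genome (WBcel235), with matches to ATCGAT or ATTGAT on either strand in capitals:
sgca-1: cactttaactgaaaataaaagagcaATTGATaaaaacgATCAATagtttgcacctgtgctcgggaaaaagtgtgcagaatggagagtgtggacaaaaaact
It holds 2 matches, both ATTGAT, 1 on each strand, and no ATCGAT.

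**Figure D4:**
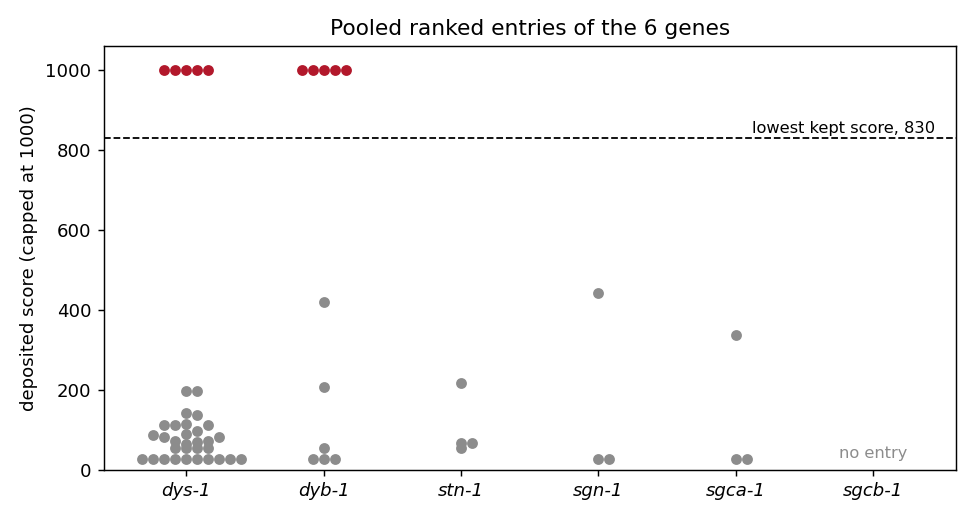
Deposited score (capped at 1000) of every pooled ranked entry in the window of each of the 6 genes, with the lowest kept score of 830 dashed. The 10 kept peaks (red) of dys-1 and dyb-1 sit at 1000, no entry of any of the 6 genes lies between 443 and 1000, and sgcb-1 has no entry.

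The places of the peaks within genes were set beside those of the whole list. Of the 10 summits at dys-1 and dyb-1, 9 were in introns, 1 was in an exon (the 3′ UTR of dys-1) and none was in the 1000 bp upstream only. The dyb-1 intron summits at 1488300 and 1488894 also lay 766 and 172 bp upstream of the 5′ end of F47G6.1c.2. Of all main-list summits 40.0% were in an intron of a protein-coding gene, 16.3% in an exon, 25.8% in the 1000 bp upstream only and 17.8% outside these. The 10 summits come from 2 genes and are not independent, and both genes consist mostly of introns, so these shares are set side by side only.

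The DNA under the peaks shared a pair of 6-base words. The words ATCGAT and ATTGAT, counted on both strands with overlapping matches included, had been picked out from these same peaks, so their presence is no independent support. In the 101 bp around the summit, all 10 summits at dys-1 and dyb-1 held at least 2 matches and 9 held 3 or more, with a median of 4. ATCGAT itself was present at all 10. Of the 2405 other main-list summits 66.2% held at least 1 match, 31.5% at least 2 and 16.8% at least 3, with a median of 1. Windows of the same length tiled over the introns of all protein-coding genes held at least 1 match in 11.7% and at least 2 in 1.39% of 297542 cases.

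The strongest dys-1 summit had 5 matches in its window, all of them ATCGAT. The summits in intron 37 had 4 each, and both summits at the 3′ end had 3. In dyb-1 the strongest 3 summits had 4 each, the fourth had 2 and the fifth had 3. Counted over whole peaks, the intron 36 peak of dys-1 held 17 matches and the double peak of intron 37 held 22. The median distance between neighbouring matches was 19 bp in both, with a range of 19 to 41 bp in intron 36 and 9 to 76 bp in intron 37. All bases in the windows of these summits were soft-masked as repeats, and stretches of them recurred within the same peak (below). The matches there are therefore not independent of each other. With ATCGAT counted alone, 3 of the 10 summits held 2 or more.

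**Figure D5:**
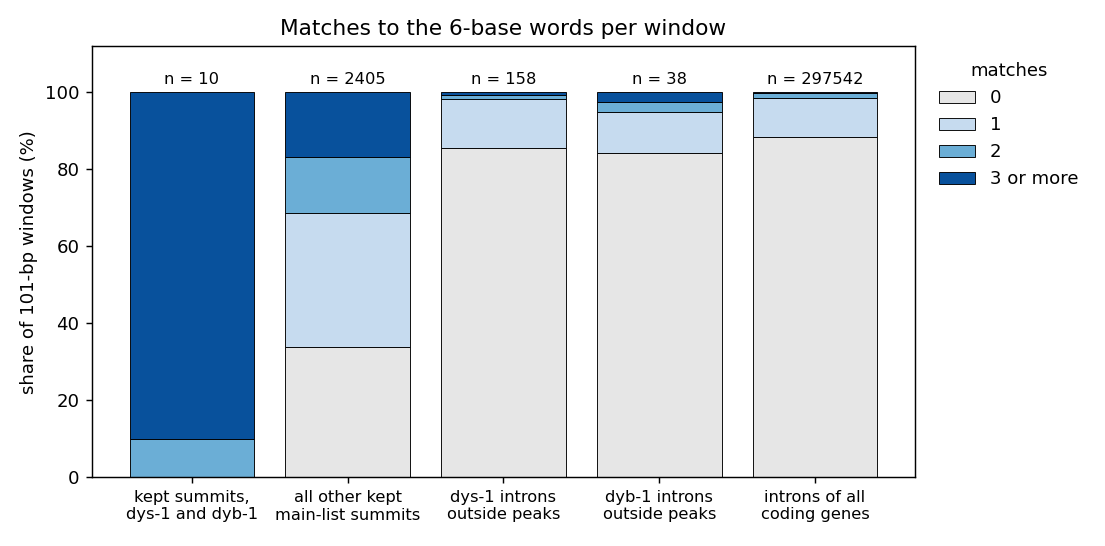
Share of 101-bp windows with 0, 1, 2, or 3 or more matches to ATCGAT or ATTGAT on either strand. All 10 windows at dys-1 and dyb-1 summits held 2 or more, against 31.5% of the other main-list summits and 1.90% and 5.26% of windows in the introns of dys-1 and dyb-1 outside kept peaks.

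Along the 2 genes the matches gathered under the peaks. The dys-1 window held 100 matches, of which 49 lay in kept peaks that cover 5.35% of it. That is 28.7 per kb inside and 1.69 per kb outside. The repeated DNA of introns 36 and 37 held 17 and 22 of the matches in kept peaks, which are not independent of each other. The dyb-1 window held 57, of which 38 lay in kept peaks that cover 14.5%, or 31.2 per kb inside and 2.64 outside. The whole nuclear genome held 1.56 per kb. Of the genes without a peak, sgn-1 held 8 matches, or 3.00 per kb, and sgca-1 held 6, or 1.82 per kb, both above the genome's rate. The stn-1 window held 2, or 0.407 per kb, and that of sgcb-1 held 3, or 1.03 per kb.

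Dense runs of the words, with at least 4 matches within 101 bp, occurred 4 times in dys-1 and 4 times in dyb-1. Each overlapped a kept peak by at least 1 bp. The dys-1 run at 11527917-11527983 and the dyb-1 run at 1489600-1489741 did so only at the edge, since those peaks ended at 11527921 and 1489603. The words were picked out from these same peaks, so nothing is read from this overlap. No such run occurred in the windows of stn-1, sgn-1, sgca-1 or sgcb-1. The nuclear genome held 710 such runs, of which 52.5% overlapped a kept main-list peak, and 390 lay wholly in an intron of a protein-coding gene, of which 66.4% did. The runs at dys-1 and dyb-1 were therefore among many in the genome, and a large share of those elsewhere had no kept peak. None of the 31 dys-1 entries of the pooled list that were not kept had 2 or more matches in its window, but 1 such entry each in dyb-1, sgn-1 and sgca-1 did. The dyb-1 entry, with its summit at 1489721, had 3 matches at a signal of 8.92 and a score of 53.

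The summits lay in repeated, AT-rich DNA. Median GC content of the 10 windows was 29.2%, against 41.6% over all main-list summits, 31.7% in introns of all protein-coding genes, 32.7% in dys-1 introns and 32.2% in dyb-1 introns outside kept peaks. At least 50% of the bases were soft-masked as repeats in the RefSeq genome sequence at all 10 summits, against 37.4% of all main-list summits. The share was 67.1% of windows in dys-1 introns and 44.7% in dyb-1 introns outside kept peaks. The part of base composition in the word counts was not tested.

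Whether reads can be placed at one position in such DNA depends on their length, which is not given in the sources used here. Of 36-base stretches within the 101 bp, 39.4% were unique in the genome at the strongest dys-1 summit, 16.7% at the summit at 11532775 and 63.6% at its neighbour. The 36-base stretches at these summits that were not unique recurred within the same peak and nowhere else. All stretches were unique at both dys-1 summits at the 3′ end and at 3 of the 5 dyb-1 summits; 90.9% were unique at the strongest dyb-1 summit and at the third, with the other 9.09% also found elsewhere. All stretches were unique at 79.6% of all main-list summits. The part of read placement in the signal at introns 36 and 37 of dys-1 was not tested.

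The peaks of dys-1 and dyb-1 were not copies of each other beyond short stretches. The longest stretch of letters shared on either strand between 2 of the 10 windows had a median of 13 bases between the genes (10 to 16). Within dys-1 the median was also 13 bases (12 to 59) and within dyb-1 16.5 bases (11 to 41).

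Genes that work beside the complex were taken as 3 lists, chosen with earlier results of these data known. Of 9 genes linked to dystrophin outside the 6, 2 held a main-list peak: slo-1, a calcium-activated potassium channel whose place in muscle depends on the complex, and snf-6, an acetylcholine transporter that binds it. Of 13 genes of the dense bodies, which anchor muscle filaments to the membrane, 2 did: pat-6, the worm parvin, and tln-1, the worm talin. None of 6 genes for basement membrane ligands did. Together this was 4 of 28 genes, or 14.3%, beside the 9.1% of all protein-coding genes. In each replicate's own list it was 2 of 28, pat-6 and tln-1.

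Like dys-1 and dyb-1, tln-1 held several peaks within the gene. Its signals were 276, 128, 66.0 and 10.3 in the main list. The strongest, in intron 9, was kept in both replicates with signals of 140 in replicate 1 and 141 in replicate 2 and lay 175 bp upstream of a transcript's 5′ end. Its window held 2 matches and that of the second 3. The weaker pair lay in a coding exon with no match and was kept in neither replicate. Both of these summits had the microRNA gene cel-mir-50 and the noncoding gene Y71G12B.36 within 1000 bp. The one with a signal of 10.3 ranked 2367 of 2415 in the main list.

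The peaks at slo-1, snf-6 and pat-6 were of moderate strength. The slo-1 peak, in intron 14 of 19, had a signal of 86.3 in the main list, and 33.5 and 38.3 in the ranked lists of replicates 1 and 2, where it was not kept. The snf-6 peak, in intron 1, had 46.5 in the main list and 39.9 in replicate 1, where it was not kept, and replicate 2 had no entry there. The pat-6 peak, 177 bp upstream of the 5′ end, had 117, 62.5 and 57.5 and was kept in both replicates. Against these, the strongest peaks of dys-1 and dyb-1 had main-list signals of 1113 and 381.

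The windows of these 3 peaks show the words in the sequence, for comparison with the denser matches at dys-1 and dyb-1. Each is 101 bp of the plus strand of the RefSeq genome (WBcel235) around the summit, with matches to either word on either strand in capitals, at chrV:18504781-18504881, chrIII:1532540-1532640 and chrIV:264359-264459 in turn:
slo-1: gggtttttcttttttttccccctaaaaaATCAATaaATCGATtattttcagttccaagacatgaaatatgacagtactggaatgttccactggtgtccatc
snf-6: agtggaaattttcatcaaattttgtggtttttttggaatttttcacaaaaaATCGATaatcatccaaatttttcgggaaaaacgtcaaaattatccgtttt
pat-6: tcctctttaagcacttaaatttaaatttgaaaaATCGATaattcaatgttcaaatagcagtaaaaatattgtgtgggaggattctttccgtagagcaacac
The slo-1 window holds 2 matches and those of snf-6 and pat-6 hold 1 ATCGAT each, against 2 to 5 at the summits of dys-1 and dyb-1.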

How the data were processed

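ChIP-seq peak lists of 2 biological replicates were read as deposited, on assembly ce11 per the labels. The authors deposited a ranked and a thresholded list of each kind: pooled (main), conservative and 1 for each replicate. The signal values, the score from the irreproducible discovery rate (capped at 1000) and the −log10 of the q-value are the authors', used untransformed. The control alignment was not used here and depth is unknown. Aligner and caller were not given in the sources used here. Kept peaks had scores of at least 830.

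Genes came from Ensembl release 115 and sequence from the RefSeq genome of the same assembly. Summits in a gene or up to 1000 bp upstream of a transcript's 5′ end were counted with Python 3.11.15 and NumPy 2.4.6. No test was run. The counting was tested on simulated data: planted summits were found in 200 of 200 genes, and planted words were counted right in 200 of 200 windows.

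The 6 genes, the lists and the words were chosen with earlier results of these data known. Named genes were the 6 genes with their kept peaks, noncoding genes within 1000 bp of those summits, list genes with a kept main-list summit and the 5 protein-coding genes with the most summits. Neighbouring genes beyond these, also those beside stn-1 and tln-1, and pat-3 and pat-4, were named after their values were seen. Alternatives were the other lists, the stronger 50% by signal, other gene windows, overlap rules and word windows.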

Additional observations from a re-analysis of the deposited data

How the results depend on the processing

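That dys-1 and dyb-1 alone of the 6 genes held kept peaks did not change under the conservative list, either replicate's list, the stronger 50% of the main list by signal, or any gene window tried. The number of dys-1 peaks was 5 in the main list, 3 in the stronger 50%, and between 3 and 6 when 1 replicate was left out, with 3 in the replicate 2 list and 6 in the replicate 1 list. The number of dyb-1 peaks stayed between 4 and 6 under every alternative run. The related lists had 4 genes with a peak in the main list, 2 in the stronger 50% and 2 when either replicate was left out; the conservative list added pat-3 and pat-4, lost 1 dystrophin-linked gene and gave 5. Peaks shared by both replicates fell from 8 to 5 of 10 when a reciprocal overlap of 50% was asked for, beside a fall from 42.3% to 32.5% of all main-list peaks, and summits with 2 or more word matches fell from 10 to 3 with ATCGAT alone. Word windows of 51 and 201 bp, chosen after seeing the data, gave 8 and 10. The cause of these differences was not tested.

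No paired analysis was possible because there was 1 group and no test. With 2 replicates, unknown depth and no samples without the tag, a count of kept peaks depends on the authors' cut, and an entry below it is not shown to be absent.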
